A study of Mus musculus with 4 samples.

Results

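The DNA replication genes described here are 47 genes that license replication origins, unwind DNA, copy it, supply deoxynucleotides for it and package the new strands. They were chosen by name from the deposited expression table, which held 23936 gene rows, and 47 of 47 had a row. All 47 also passed a minimum of 1 FPKM (fragments per kilobase of transcript and per M mapped fragments, M for mega) averaged over the 4 libraries, which 8964 genes of the table passed. The cells were G1ER erythroblasts, a mouse line without endogenous GATA1 in which a fusion of GATA1 to the estrogen receptor lets beta-estradiol start red cell maturation. RNA was taken from wild-type cells and from a Chd7-/- line, which lacks the chromatin remodeler CHD7, in each case at 0 h and after 24 h of beta-estradiol. All cells grew with erythropoietin and with medium conditioned for stem cell factor. Each of the 4 groups held 1 library, so there were no replicates, no test was possible, and each statement is about these libraries. The study asked how loss of CHD7 affects erythroid maturation, and whether the Chd7-/- line is a single clone is not given in the sources used here.

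In each cell cycle the origin recognition complex, CDC6 and CDT1 load the MCM2-7 helicase onto origins, and geminin blocks CDT1 afterwards so that no origin is licensed again. CDC45, the GINS complex and MCM10 turn the loaded ring into an active helicase, primase and DNA polymerase alpha lay down primers, and polymerases epsilon and delta extend them on the PCNA clamp, which the RFC complex loads. Many of these genes are known targets of E2F factors and are expressed at the border of G1 and S phase. Erythroblasts divide rapidly while they mature and leave the cell cycle late, and GATA1 is known to slow their division.

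The deposited values carry no read totals, and depth was estimated from the spacing of low FPKM values. That spacing gave 15.7 M fragments at 0 h and 18.8 M at 24 h for the wild-type libraries, against 15.7 M and 16.8 M for the Chd7-/- ones. Between 58.8% and 69.9% of the low values were within 0.1 fragment of a whole number at these depths, against 12.5% to 14.9% at a typical other depth. With a member's main transcript, the 95% interval from counting alone then had a half-width of 0.03 to 0.19 for a log2 ratio of 2 libraries, and it does not cover the spread between cultures. Chd7 itself had a listed FPKM of 0 in every one of the 4 libraries, which leaves the genotype labels unchecked by it. Erythroid markers reached a mean of 1 FPKM in 10 of 10 listed genes, though Slc4a1 stood at 0.10 and 0.23 FPKM at 0 h. Their summed level was 850 FPKM at 0 h and 10311 at 24 h in wild-type cells, and 1070 and 17208 in Chd7-/- cells. Hbb-b1 alone held 326 and 7865 FPKM of this in wild-type cells, and 528 and 13127 in Chd7-/- cells. Mast cell and basophil markers, of which 4 of 10 reached a mean of 1 FPKM, summed to 38.1 and 7.57 FPKM in wild-type cells and to 66.7 and 5.53 in Chd7-/- cells. Of the listed myeloid, megakaryocyte and lymphoid markers, 1, 2 and 0 reached a mean of 1 FPKM over the 4 libraries, and Mpo, Elane, Cd3e and Vwf were among those at 0 in all 4 libraries. Cd3g, a lymphoid marker under that mean, had 2.02 and 1.31 FPKM in the wild-type libraries and 0.30 and 0.07 in the Chd7-/- ones. The part of such cells in the values below was not tested. In bulk RNA, fewer cells in S phase and less RNA per cell cannot be told apart.

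The replication genes were expressed well above the typical gene in all 4 libraries. Their median level was 51.2 FPKM in wild-type cells and 51.2 in Chd7-/- cells at 0 h, and 48.1 and 45.3 at 24 h, against 12.4, 12.0, 11.5 and 11.02 FPKM for all 8964 genes in the same order. The lowest was Orc1, between 10.4 and 11.1 FPKM, and the highest was Pcna, the sliding clamp of the polymerases, between 305 and 382. Their summed level was 3640 and 3632 FPKM in wild-type cells at 0 and 24 h and 3541 and 3341 in Chd7-/- cells.

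**Figure D1:**
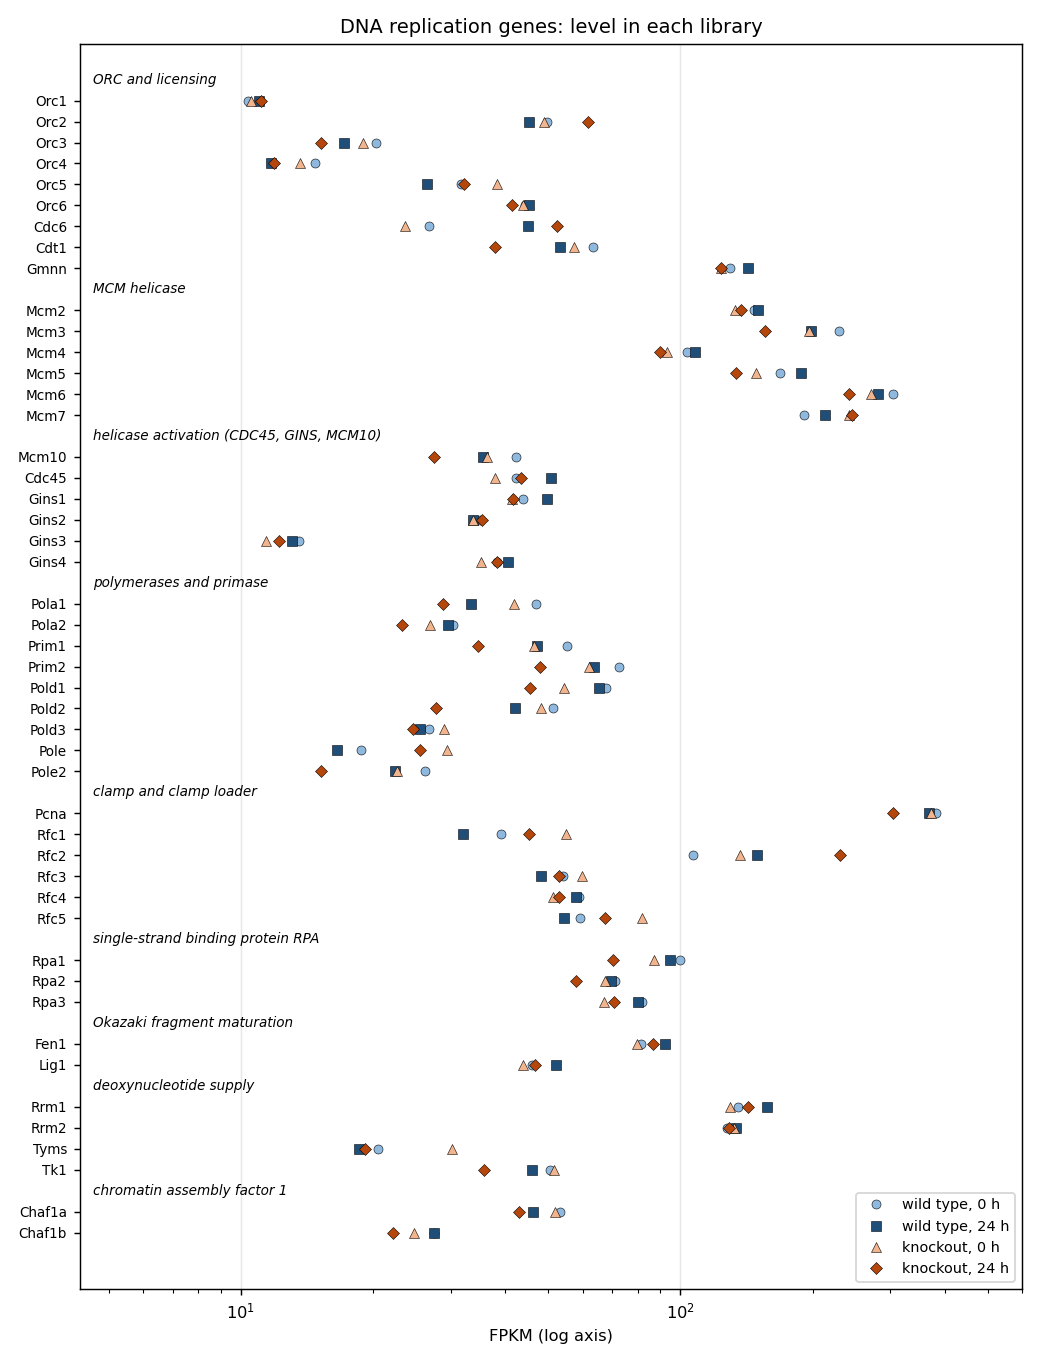
Level of each of the 47 replication genes in the 4 libraries, in FPKM on a log axis, grouped by role, with 1 symbol per library. Most genes keep their place, from Orc1 near 10.4 FPKM to Pcna near 382, while Cdc6, Rfc2, Pold2 and Pole spread most.

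After 24 h of beta-estradiol, in FPKM as deposited, the replication genes were close to their level at 0 h in both genotypes and few passed a fixed ratio. For the knockout this depends on the scaling: with libraries scaled to an equal sum (transcripts per M, TPM) the members' median log2 ratio over time was 0.89 there, and 41 of 47 were at least 1.5-fold and 19 at least 2-fold higher. Ratios are given as log2 ratios of FPKM + 1, which understate the change of low genes. In wild type no member reached 2-fold in either direction, where 1.86% of all genes were higher and 1.06% lower. There 1 member, Cdc6, was at least 1.5-fold higher, where 4.60% of all genes were. None was at least 1.5-fold lower, where 6.64% of all genes were. In the knockout 1 member, again Cdc6, was at least 2-fold higher, where 3.38% of all genes were, and none was 2-fold lower, where 3.64% were. Cdc6 and Rfc2 were at least 1.5-fold higher, or 4.26% of the members against 8.40% of all genes. Cdt1, Pold2 and Tyms were at least 1.5-fold lower, or 6.38% of the members against 13.9% of all genes. Of these 3, 1 (Pold2) passed with a pseudocount of 5 FPKM, median-centred libraries or upper-quartile scaling, and 0 under TPM. Over the members the median log2 ratio was -0.05 in wild-type cells and -0.17 in Chd7-/- cells, and that of all genes -0.11 and -0.12. By comparison the 10 erythroid markers had medians of 2.01 and 2.76. Below 0 were 30 of 47 members (63.8%) in each genotype, near the 64.0% and 62.5% of all genes. With median-centred libraries 20 of 47 were below 0 in wild-type cells and 27 of 47 in Chd7-/- cells. With TPM scaling 8 of 47 were below 0 in wild-type cells and 0 of 47 in Chd7-/- cells.

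The knockout response lay below the wild-type response for most of the members. The difference of the log2 ratios, knockout minus wild type, was below 0 for 35 of 47 members (74.5%), where 53.7% of all genes were below 0. It was beyond its counting interval below 0 for 21 members and above 0 for 3. That interval was computed for the members only, so no share of all genes stands beside these counts. The responses had opposite signs in 10 of 47 members (Orc2, Orc6, Mcm4, Mcm5, Gins2, Gins3, Rfc4, Rpa3, Rrm2 and Chaf1b). The share of all genes with opposite signs was not computed. No member's difference reached 1.5-fold, which 2.96% of all genes did in the higher and 2.80% in the lower direction, and 0.602% and 0.625% reached 2-fold. The median difference was -0.11 for the members and -0.02 for all genes. With TPM scaling the median of all genes moves to 0.72 and that of the members to 0.73, all 47 members lie above 0, and the lower response of the knockout relative to all genes is lost.

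**Figure D2:**
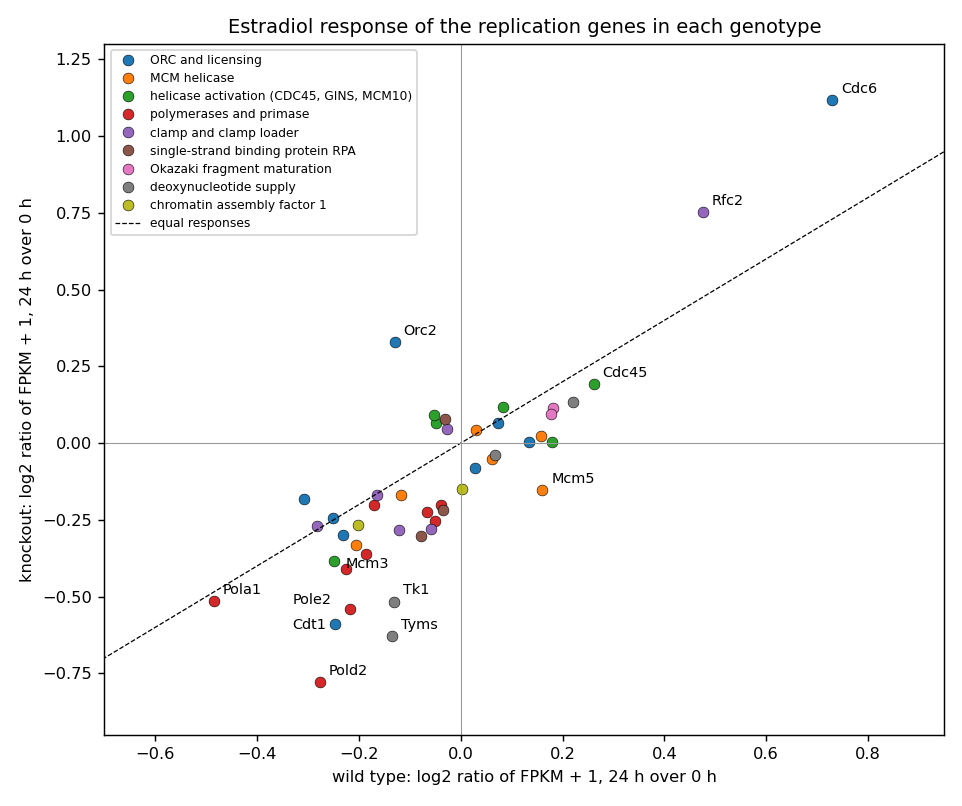
Log2 ratio of FPKM + 1 at 24 h over 0 h in wild-type cells (x axis) and in Chd7-/- cells (y axis), with 1 point per replication gene coloured by role and a dashed line of equal responses. Cdc6 (0.73 and 1.12) and Rfc2 (0.48 and 0.75) lie far from the rest, and most points lie under the line.

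Licensing genes held the member with the largest response. Cdc6 (chromosome 11, 98907709 to 98923942, GRCm38), which encodes the ATPase that brings MCM2-7 to the origin recognition complex, stood at 26.8 FPKM in wild-type cells and 23.6 in Chd7-/- cells at 0 h, and at 45.1 and 52.3 at 24 h. Both libraries at 24 h were above both at 0 h. Its log2 ratio was 0.73 in wild-type cells and 1.12 in Chd7-/- cells, and 0.97 and 2.17 with TPM scaling. Cdt1 (chromosome 8, 122568015 to 122573130), whose product is the other helicase loading factor, stood at 63.2 and 57.4 FPKM in wild-type and knockout cells before estradiol, and at 53.1 and 37.8 at 24 h. Its lowest value was that of the knockout at 24 h, and its log2 ratio was -0.25 in wild-type cells and -0.59 in Chd7-/- cells, or 0.48 in Chd7-/- cells with TPM scaling. The ratio of the 2 genes inside a library, which does not depend on the scaling between libraries, was 0.42 in wild-type cells and 0.41 in Chd7-/- cells at 0 h, and 0.85 and 1.38 at 24 h. Cdc6 thus stood below Cdt1 in 3 libraries and above it in Chd7-/- cells at 24 h.

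Gmnn, which encodes the CDT1 inhibitor geminin, varied little, from 123 to 142 FPKM. Its ratio to Cdt1 inside a library was 2.05 and 2.15 at 0 h, and 2.68 in wild-type cells and 3.27 in Chd7-/- cells at 24 h. Of the 6 genes of the origin recognition complex none reached 1.5-fold in any comparison in FPKM as deposited. Between 1.83% and 13.9% of all genes did, depending on comparison and direction, so this does not set the 6 apart. Orc1, which encodes the largest subunit, was the steadiest, from 10.4 to 11.1 FPKM. Orc2 stood at 49.7 and 48.9 FPKM in wild-type and knockout cells before estradiol and at 45.3 and 61.6 at 24 h, so that only the knockout was higher at 24 h, and its log2 ratios were -0.13 and 0.33. Orc2 overlaps Nif3l1 on the other strand, whose row was lower at 24 h in both genotypes (18.7 to 10.9 and 14.8 to 8.37 FPKM). Orc3 and Orc4 were slightly lower at 24 h in both genotypes, Orc3 at 20.3 and 17.1 FPKM in wild-type cells and 18.9 and 15.2 in Chd7-/- cells, and Orc4 at 14.7 and 11.7 and at 13.7 and 11.9. Orc6 lay between 41.3 and 45.2 FPKM.

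The promoters of 5 members are shown because these genes stood apart above or below, namely Cdc6 and Cdt1, whose ratio inside a library differed between 0 and 24 h, Pold2, the member with the lowest response in Chd7-/- cells, and Mcm7 and Mcm5, subunits of the same ring that differed between the genotypes in opposite directions. The sequences come from RefSeq on GRCm38.p6, which held windows for 39 of the 47 members, and run 5′ to 3′ on the gene's strand from 250 bases before to 50 bases after an annotated start. Capitals mark matches to the E2F letters TTTCCCGC, TTTCGCGC, TTTGCCGC or TTTGGCGC on either strand, and matches may overlap.
Cdc6, chr11:98907901-98908200, plus strand: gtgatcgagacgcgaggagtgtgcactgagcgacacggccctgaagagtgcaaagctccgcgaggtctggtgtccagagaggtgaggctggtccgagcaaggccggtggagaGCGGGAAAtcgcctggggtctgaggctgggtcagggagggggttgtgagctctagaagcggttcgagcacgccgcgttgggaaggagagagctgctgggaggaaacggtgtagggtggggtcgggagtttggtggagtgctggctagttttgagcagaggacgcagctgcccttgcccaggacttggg
Cdt1, chr8:122567765-122568064, plus strand: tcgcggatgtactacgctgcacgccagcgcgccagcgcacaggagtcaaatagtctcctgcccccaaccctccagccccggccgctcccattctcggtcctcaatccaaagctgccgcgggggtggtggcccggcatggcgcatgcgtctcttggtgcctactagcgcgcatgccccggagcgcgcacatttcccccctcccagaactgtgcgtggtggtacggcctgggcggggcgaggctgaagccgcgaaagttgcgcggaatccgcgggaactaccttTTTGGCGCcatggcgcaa
Pold2, chr11:5878207-5878506, minus strand: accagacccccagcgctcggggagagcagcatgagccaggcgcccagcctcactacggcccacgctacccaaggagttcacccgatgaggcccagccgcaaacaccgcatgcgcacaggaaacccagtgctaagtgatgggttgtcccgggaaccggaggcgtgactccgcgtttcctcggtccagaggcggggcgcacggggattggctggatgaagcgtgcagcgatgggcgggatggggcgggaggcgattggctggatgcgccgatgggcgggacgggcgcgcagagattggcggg
Mcm7, chr5:138171834-138172133, minus strand: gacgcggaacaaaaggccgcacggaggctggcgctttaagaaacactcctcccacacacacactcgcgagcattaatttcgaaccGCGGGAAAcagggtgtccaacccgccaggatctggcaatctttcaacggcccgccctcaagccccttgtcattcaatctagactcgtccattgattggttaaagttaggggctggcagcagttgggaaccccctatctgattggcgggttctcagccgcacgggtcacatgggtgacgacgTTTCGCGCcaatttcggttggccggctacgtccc
Mcm5, chr8:75109259-75109558, plus strand: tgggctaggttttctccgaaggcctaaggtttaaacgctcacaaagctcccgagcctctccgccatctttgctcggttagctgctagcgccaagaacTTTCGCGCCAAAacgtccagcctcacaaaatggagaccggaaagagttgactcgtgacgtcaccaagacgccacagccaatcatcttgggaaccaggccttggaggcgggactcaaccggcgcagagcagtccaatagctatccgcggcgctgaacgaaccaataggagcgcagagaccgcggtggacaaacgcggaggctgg
Counted from 1 at the 5′ end of the window, the Cdc6 match lies at bases 113 to 120, on the opposite strand, and that of Cdt1 at bases 283 to 290. Mcm7 holds matches at bases 86 to 93 and 267 to 274, and Mcm5 holds 2 that overlap, at bases 98 to 105 and 102 to 109. The Pold2 window holds none of these letters, but 3 matches to CCAAT on the opposite strand. The Mcm7 and Mcm5 windows shown also hold 3 CCAAT matches each, counted on both strands. Pold2 and Mcm7 each have another window, not shown, with no E2F match. That of Pold2 holds a GATA match, TGATAA at bases 282 to 287. Over the 39 members with a window, 15 had an E2F match, or 31.9% of their 47 windows, against 4.52% of the windows of all genes with at least 1 FPKM and 2.26% of all windows. CCAAT, searched on both strands, was in 55.3% of the members' windows and 39.2% of those of the expressed genes. The GATA letters AGATAA and TGATAA were in 8.51% and 9.91%. Cdc6, with the highest response, and Cdt1, lower at 24 h, each held 1 E2F match and no CCAAT or GATA match in these windows.

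The MCM2-7 genes encode the subunits of a ring that needs equal numbers of each, and they were among the most abundant members. In wild type at 0 h they ran from 103 FPKM (Mcm4) to 305 (Mcm6), a spread of 2.95-fold, which was 2.61-fold at 24 h and 2.91 and 2.73-fold in Chd7-/- cells. None reached 1.5-fold in any comparison in FPKM as deposited, where between 1.83% and 13.9% of all genes did, depending on comparison and direction. Mcm2 stood at 147 and 150 FPKM in wild-type cells at 0 and 24 h and at 133 and 137 in Chd7-/- cells. Mcm3 stood at 229 and 199 in wild-type cells and 197 and 156 in Chd7-/- cells, the largest difference over time in the ring, with log2 ratios of -0.20 and -0.33. Mcm4 stood at 103 and 108 in wild-type cells and 93.3 and 90.0 in Chd7-/- cells. For these genes the lower values were thus those of the knockout. Mcm5 stood at 169 and 188 FPKM in wild-type cells and 149 and 134 in Chd7-/- cells, so that it was higher at 24 h in wild-type cells and lower in Chd7-/- cells (log2 ratios 0.16 and -0.15). Mcm6 stood at 305 and 281 in wild-type cells and 272 and 241 in Chd7-/- cells.

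Mcm7 (chromosome 5, 138164583 to 138172111) was the exception among the ring genes. It stood at 191 and 213 FPKM in wild-type cells and at 242 and 246 in Chd7-/- cells, higher in Chd7-/- cells at both times (at 0 h all 47 members are lower with TPM scaling), while each of the other ring genes was lower in Chd7-/- cells at both times. Of all genes 65.3% were lower at 0 h and 61.8% at 24 h. Of the genes on chromosome 5, 94.4% were higher at 0 h and 90.0% at 24 h. The log2 ratio of Mcm7 was 0.34 and 0.20, against medians of 0.40 and 0.34 for that chromosome. Against the mean of the other 5 MCM genes in the same library, Mcm7 was at a ratio of 1.00 and 1.15 in wild-type cells and of 1.43 and 1.62 in Chd7-/- cells. This ratio does not depend on the scaling between libraries. Mcm7 overlaps Ap4m1 and Cops6 on the other strand, and Ap4m1 stood at 8.82 and 11.4 FPKM in wild-type cells and 12.2 and 11.8 in Chd7-/- cells. Cops6 stood at 31.2 and 31.1 FPKM in wild-type cells and 44.7 and 39.5 in Chd7-/- cells.

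Among the genes that activate the ring, none of Mcm10, Cdc45 and the 4 GINS genes reached 1.5-fold in any comparison in FPKM as deposited. Per comparison and direction, between 1.83% and 13.9% of all genes did, so passing none does not set these genes apart. With TPM scaling most replication genes were at least 1.5-fold higher in Chd7-/- cells over time. Most were also at least 1.5-fold lower there than in wild-type cells at 0 h. Cdc45, which encodes the helicase cofactor, stood at 42.2 and 50.7 FPKM in wild-type cells and 37.9 and 43.4 in Chd7-/- cells at 0 and 24 h (log2 ratios 0.26 and 0.19). Mcm10, needed to start unwinding, went the other way, at 42.4 and 35.5 in wild-type cells and 36.2 and 27.6 in Chd7-/- cells (-0.25 and -0.38). The GINS genes code for a complex with 1 copy of each subunit. Gins1, Gins2 and Gins4 lay between 33.7 and 49.7 FPKM, and Gins3 well under them at 11.4 to 13.6. All 6 were lower in Chd7-/- cells at 0 h, with log2 ratios from -0.23 (Gins3) to -0.05 (Gins2). There 65.3% of all genes were lower, with an all-gene median of -0.07. With libraries scaled to an equal sum without small RNA and predicted loci, 2 of the 6 were above 0.

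Polymerase and primase genes were lower at 24 h in FPKM as deposited, 9 of 9 in each genotype, where 64.0% and 62.5% of all genes were below 0. With median-centred libraries or upper-quartile scaling, 3 of 9 were above 0 in wild-type cells and 0 of 9 in Chd7-/- cells. In FPKM as deposited the median log2 ratio of these genes was -0.19 in wild-type cells and -0.36 in Chd7-/- cells. The knockout response was the lower one for 9 of 9, where 53.7% of all genes had a lower one. For that difference 9 of 9 lay above 0 with TPM scaling, and 2 of 9 with upper-quartile scaling or an equal sum without small RNA and predicted loci. With TPM scaling, which moves the all-gene median over time from -0.11 to 0.11 in wild-type cells and from -0.12 to 0.83 in Chd7-/- cells, 7 of 9 were above 0 in wild-type cells and 9 of 9 in Chd7-/- cells. Pold2 (chromosome 11, 5872180 to 5878256), which encodes the second subunit of polymerase delta, stood at 51.2 FPKM in wild-type cells and 48.3 in Chd7-/- cells at 0 h and at 42.1 and 27.7 at 24 h. The knockout at 24 h was far under the other 3 libraries. The log2 ratio over time was -0.28 in wild-type cells and -0.78 in Chd7-/- cells (0.28 with TPM scaling), and that of knockout over wild type at 24 h was -0.59, which is at the 1.5-fold limit. Its ratio to Pold1, the catalytic subunit, was 0.76 and 0.64 in wild-type cells and 0.89 and 0.61 in Chd7-/- cells at 0 and 24 h.

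Pola1, the catalytic subunit of the priming polymerase, stood at 47.03 and 33.3 FPKM in wild-type cells and 41.7 and 28.9 in Chd7-/- cells, with nearly equal log2 ratios of -0.49 and -0.52. Prim1 and Prim2 encode the primase that makes the RNA primer. Prim1 stood at 55.3 and 47.1 in wild-type cells and 46.3 and 34.7 in Chd7-/- cells, and Prim2 at 72.3 and 63.4 and at 61.9 and 47.99. Pola2, the partner of Pola1, stood at 30.3 and 29.5 in wild-type cells and at 26.9 and 23.3 in Chd7-/- cells. Pold1 stood at 67.7 and 65.3 in wild-type cells and 54.4 and 45.4 in Chd7-/- cells. In each of these the knockout was under wild type at both times, where 65.3% of all genes were at 0 h and 61.8% at 24 h. Pold3, an accessory subunit of polymerase delta, lay between 24.7 and 29.0 FPKM.

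Polymerase epsilon genes moved apart between the genotypes. Pole (chromosome 5, 110286319 to 110337468), the catalytic subunit, stood at 18.8 and 16.6 FPKM in wild-type cells and 29.4 and 25.5 in Chd7-/- cells at 0 and 24 h. It was thus higher in Chd7-/- cells at both times, where 94.4% and 90.0% of chromosome 5 genes were. Pole was the only member at least 1.5-fold higher in Chd7-/- cells at 0 h, with a log2 ratio of 0.62 (-0.14 with TPM scaling), and its ratio was 0.59 at 24 h. Pole2, its partner subunit on chromosome 12, stood at 26.2 and 22.4 FPKM in wild-type cells and 22.7 and 15.3 in Chd7-/- cells. The ratio of Pole to Pole2 inside a library was 0.72 and 0.74 in wild-type cells and 1.30 and 1.67 in Chd7-/- cells.

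Of the clamp and clamp loader genes, Rfc2 (chromosome 5, 134582690 to 134598328), a small subunit of the RFC complex, stood at 107 and 149 FPKM in wild-type cells and 136 and 230 in Chd7-/- cells at 0 and 24 h. It was higher at 24 h in both genotypes and higher in Chd7-/- cells at both times, but lower there at 0 h with TPM scaling (log2 ratio -0.45). The log2 ratios over time were 0.48 and 0.75 (0.72 and 1.84 with TPM scaling), and the difference of 0.28 was beyond its counting half-width of 0.05. Rfc2 overlaps Lat2 on the other strand, which stood at no more than 0.44 FPKM. Pcna stood at 382 and 367 FPKM in wild-type cells and at 371 and 305 in Chd7-/- cells, with the knockout at 24 h lowest. Rfc1, the large subunit, stood at 39.1 and 32.0 in wild-type cells and 54.8 and 45.3 in Chd7-/- cells. Rfc5 stood at 59.2 and 54.4 and at 81.9 and 67.2. Rfc1 and Rfc5 were thus higher in Chd7-/- cells at both times. Of all chromosome 5 genes 94.4% were higher at 0 h and 90.0% at 24 h. With TPM scaling Rfc1 and Rfc5 were lower in Chd7-/- cells at 0 h. Rfc3 stood at 54.0 and 48.1 and at 59.6 and 52.9. Rfc4, the only subunit gene of the 5 that is not on chromosome 5, stood at 58.9 and 57.8 in wild-type cells and 51.2 and 52.9 in Chd7-/- cells. The mean of the other 4 RFC genes over Rfc4 was 1.10 and 1.23 in wild-type cells and 1.62 and 1.87 in Chd7-/- cells.

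The 3 genes of RPA, which coats single-stranded DNA, were lower in Chd7-/- cells at both times. Of all genes 65.3% were lower at 0 h and 61.8% at 24 h. With an equal sum without small RNA and predicted loci, 1 of the 3 was above 0 at 0 h. Rpa1 stood at 99.7 and 94.5 FPKM in wild-type cells and 86.9 and 70.3 in Chd7-/- cells at 0 and 24 h, and Rpa2 at 71.1 and 69.4 and at 67.5 and 58.0. Rpa3 stood at 81.8 and 80.0 in wild-type cells and 66.9 and 70.7 in Chd7-/- cells. Fen1 and Lig1, a nuclease and a ligase that join the fragments of the lagging strand, were slightly higher at 24 h in both genotypes. Fen1 stood at 81.5 and 92.5 FPKM in wild-type cells and 79.7 and 86.4 in Chd7-/- cells, and Lig1 at 45.9 and 52.1 and at 43.7 and 46.8. These differences over time were beyond the counting interval, at log2 ratios of 0.09 to 0.18, but far from 1.5-fold.

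The genes for deoxynucleotide supply divided. Rrm1 and Rrm2 encode the subunits of ribonucleotide reductase. Rrm1 stood at 135 and 158 FPKM in wild-type cells and 130 and 142 in Chd7-/- cells, with log2 ratios of 0.22 and 0.13 that were beyond their counting half-widths of 0.04, and Rrm2 lay between 128 and 134. Tyms (chromosome 5, 30038546 to 30073645), thymidylate synthase, stood at 20.5 and 18.6 FPKM in wild-type cells and at 30.2 and 19.2 in Chd7-/- cells. Its value in Chd7-/- cells at 0 h stood above the other 3 libraries, and its log2 ratio over time was -0.14 in wild-type cells and -0.63 in Chd7-/- cells (0.42 with TPM scaling). Tk1, the thymidine kinase of the salvage route, stood at 50.5 and 46.0 in wild-type cells and 51.6 and 35.7 in Chd7-/- cells, so that its lowest value was that of the knockout at 24 h. Both thymidylate genes thus had their lower response in Chd7-/- cells, with differences of -0.49 for Tyms and -0.38 for Tk1. The direction was shared by Rrm1 (-0.09) and Rrm2 (-0.11), and by 35 of the 47 members. Chaf1a and Chaf1b, which encode subunits of the histone chaperone CAF-1, stood at 53.3 and 46.2 FPKM and at 27.5 and 27.6 in wild-type cells, and at 51.7 and 42.8 and at 24.7 and 22.2 in Chd7-/- cells.

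**Figure D3:**
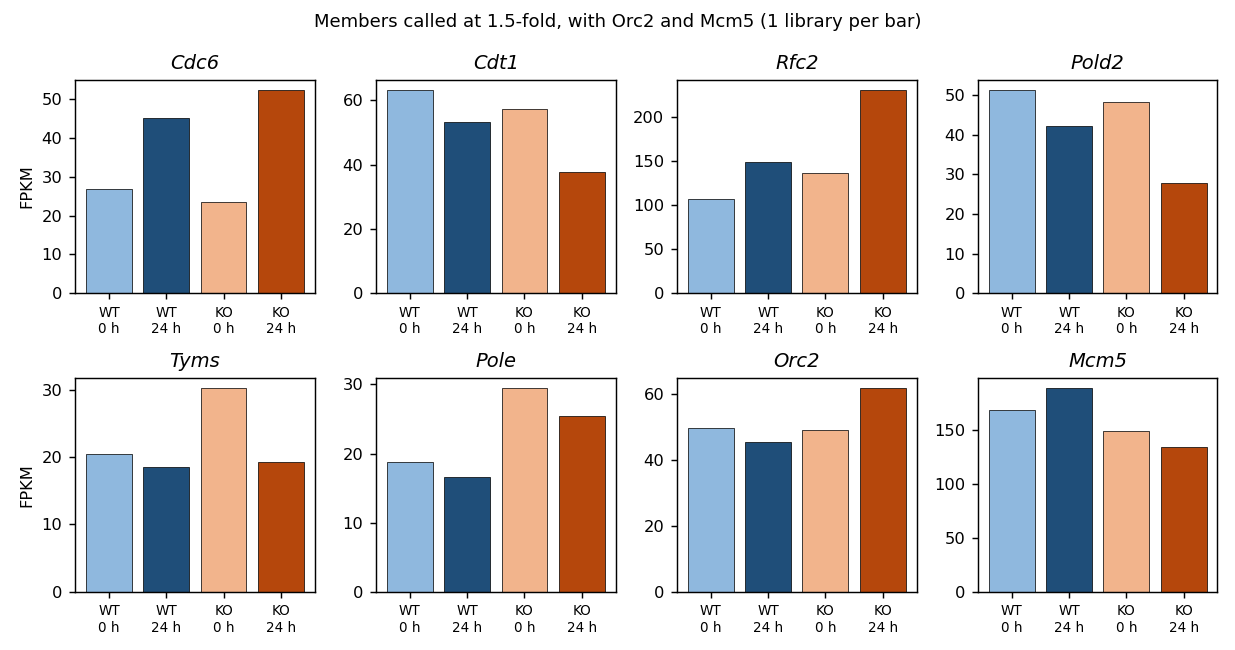
FPKM of the 6 replication genes that reached 1.5-fold in any comparison in FPKM as deposited, and of Orc2 and Mcm5, with 1 bar per library. Responses of Orc2 and Mcm5 had opposite signs beyond counting error in FPKM as deposited. Cdc6 and Rfc2 are higher at 24 h in both genotypes, Cdt1 and Pold2 are lowest in Chd7-/- cells at 24 h, and Pole is higher in Chd7-/- cells at both times.

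Between the genotypes, the replication genes separated by chromosome. The split by chromosome was chosen after results of these data were known. At 0 h 12 of 47 members were higher in Chd7-/- cells and 35 lower, where 65.3% of all genes were lower. With TPM scaling, which moves the all-gene median from -0.07 to -0.78 there, all 47 members were lower, and the order of the members was what separated the chromosomes. Of the 8 members on chromosome 5 (Mcm7, Orc5, Pole, Rfc1, Rfc2, Rfc3, Rfc5 and Tyms), 8 were higher, with log2 ratios from 0.14 (Rfc3) to 0.62 (Pole). Of the 39 on other chromosomes 35 were lower, with ratios from -0.31 (Pold1) to 0.11 (Pold3), so that the ranges did not overlap. Among all genes, 94.4% of the 558 on chromosome 5 and 30.4% of the 7849 on other chromosomes were above 0. The median log2 ratio was 0.40 for the 8 members and 0.40 for all genes of chromosome 5, and -0.14 for the other 39 members and -0.08 for all genes of other chromosomes. The 8 members thus stood where the genes of their chromosome stood. At 1.5-fold 1 of the 8 was higher (Pole), where 13.6% of chromosome 5 genes, 1.03% of genes on other chromosomes and 1.83% of all genes were. None was 1.5-fold lower, where 2.31% of all genes were, and none 2-fold apart, where 0.435% were higher and 0.647% lower.

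At 24 h the split was still there but less complete. All 8 members on chromosome 5 were higher in Chd7-/- cells, with log2 ratios from 0.05 (Tyms) to 0.62 (Rfc2), and 34 of the other 39 were lower. Of all genes 61.8% were lower, and 90.0% on chromosome 5 and 34.7% on other chromosomes were higher. Rfc2 and Pole were at least 1.5-fold higher, where 3.51% of all genes, 19.7% of chromosome 5 genes and 2.46% of genes on other chromosomes were. Pold2 was at least 1.5-fold lower, where 5.02% of all genes were. It lay just past the limit of 0.585, and 0 members were 1.5-fold lower with a pseudocount of 5 FPKM or under any of the 4 other scalings, where its log2 ratio ran between -0.54 and -0.47. No member was 2-fold apart, where 0.714% of all genes were higher and 1.14% lower. Of the 39, 3 stood above Tyms, with Orc2 the highest at 0.43, followed by Cdc6 at 0.21. The median was 0.29 for the 8 members and 0.34 for all genes of their chromosome, and -0.20 for the other 39 and -0.10 for all genes of other chromosomes. Orc5 stood at 31.7 and 26.4 FPKM in wild-type cells and 38.2 and 32.1 in Chd7-/- cells. The median of the 8 exceeded that of the 39 by 0.54 at 0 h and 0.49 at 24 h, and by 0.51 to 0.55 and 0.45 to 0.50 under the other settings run. These 8 genes made up 14.3% and 15.4% of the summed FPKM of the members in wild-type cells and 19.0% and 21.5% in Chd7-/- cells. The number of copies of chromosome 5 in the line was not tested.

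**Figure D4:**
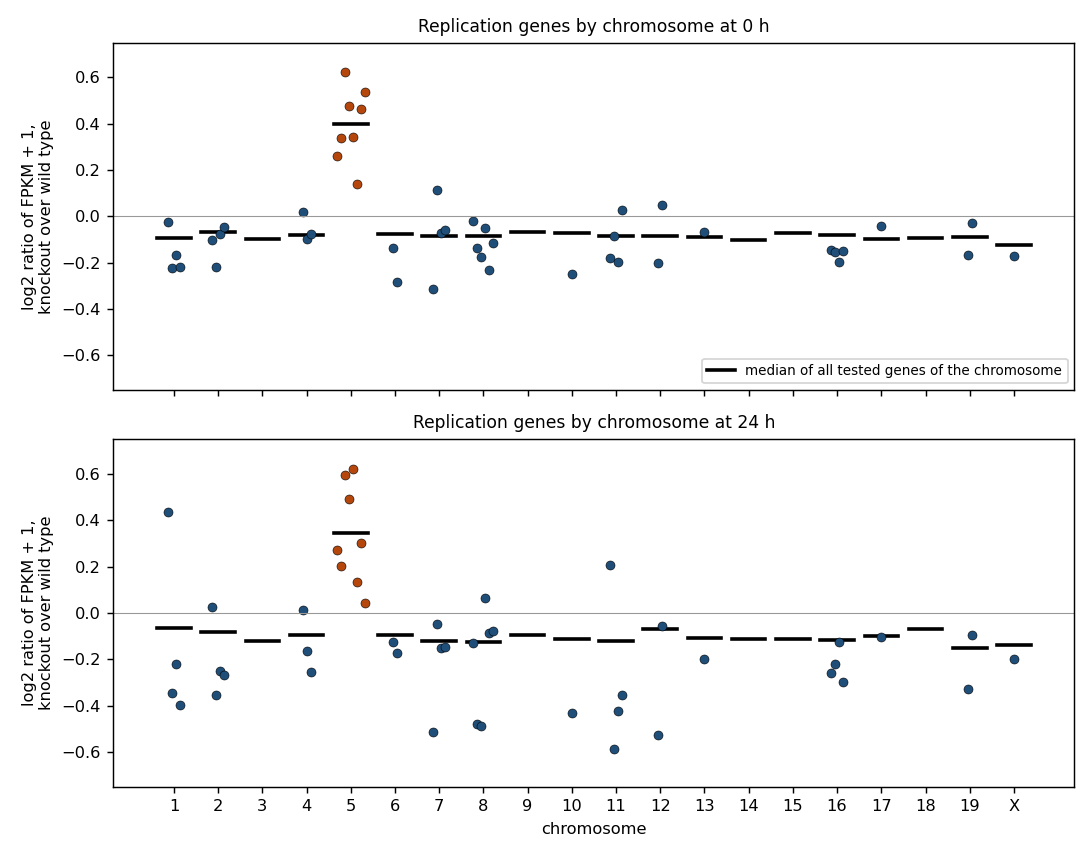
Log2 ratio of FPKM + 1, knockout over wild type, for the replication genes by chromosome at 0 h (top) and 24 h (bottom); points are single genes, orange on chromosome 5 and blue elsewhere, and black lines are the medians of all tested genes of each chromosome. The 8 points on chromosome 5 lie above 0 at both times, around the line at 0.40 and 0.34, and most other points lie below 0.

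Across the comparison of genotypes as a whole, the members' median log2 ratio was -0.08 at 0 h, near the -0.07 of all genes. At 24 h it was -0.15, against -0.09. Without chromosome 5 the medians were -0.14 and -0.20, against -0.08 and -0.10 for the remaining genes. At 0 h 2.13% of the members were at least 1.5-fold higher and 0 lower, against 1.83% and 2.31% of all genes. At 24 h 4.26% were higher and 2.13% lower, against 3.51% and 5.02%. With TPM scaling 40 of 47 members were at least 1.5-fold lower at 0 h.

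Other genes of the replication program, taken from lists chosen with earlier results of these data known, are given by their counts. For comparison, the 1.5-fold limit over time was passed upward by 4.60% and downward by 6.64% of all genes in wild-type cells, and by 8.40% and 13.9% in Chd7-/- cells. Of 28 origin firing and fork factors, 0 reached 1.5-fold in wild-type cells, where log2 ratios ran from -0.52 (Mtbp) to 0.34 (Rnaseh2a), and in Chd7-/- cells 1 was higher at 24 h (Pold4, an accessory subunit of polymerase delta, 8.46 to 16.0 FPKM) and 2 were lower. Those were Chtf8, part of an alternative clamp loader (71.4 to 40.4 FPKM), and Mtbp, which helps origins fire (16.4 to 10.4). Of 14 other genes of nucleotide supply, 3 were at least 1.5-fold lower in wild-type cells and 7 in Chd7-/- cells, 4 of them beyond 2-fold, where 3.64% of all genes were 2-fold lower. Dctd, the dCMP deaminase that feeds thymidylate synthesis, stood at 11.6 and 4.90 FPKM in wild-type cells and 10.5 and 2.90 in Chd7-/- cells. Mthfd1 and Shmt1, enzymes of the folate cycle that thymidylate synthase uses, stood at 208 and 123 and at 28.1 and 13.9 FPKM in wild-type cells, and at 218 and 92.5 and at 27.2 and 11.1 in Chd7-/- cells. Dck, a salvage kinase on chromosome 5, went the other way, at 9.09 and 13.8 and at 11.3 and 21.6 FPKM.

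Of 11 measured histone chaperone and maintenance methylation genes, 11 were lower at 24 h in both genotypes, where 64.0% and 62.5% of all genes were, 2 of them at least 1.5-fold in Chd7-/- cells, Rbbp7 (183 to 113 FPKM) and Hells (50.4 to 31.3). Of 27 measured G1/S regulators, wild-type cells had 2 higher and 2 lower by 1.5-fold or more, and Chd7-/- cells 2 higher and 5 lower, not far from the shares of all genes. Ccnd3, cyclin D3, stood at 50.8 and 99.0 FPKM in wild-type cells and 48.7 and 143 in Chd7-/- cells. Cdkn1b, the CDK inhibitor p27, stood at 12.5 and 23.2 and at 9.78 and 27.1. Skp2, the ubiquitin ligase subunit that targets p27, stood at 11.4 and 7.01 and at 11.8 and 3.77. E2f1 and E2f2, activators of replication genes, stood between 3.64 and 4.15 and between 6.67 and 7.22 FPKM. E2f3 was lower at 24 h, at 5.4 and 3.8 FPKM in wild-type cells and 5.9 and 3.8 in Chd7-/- cells. Of 24 mitosis genes 0 reached 1.5-fold over time in wild-type cells and 2 were higher in Chd7-/- cells, and 21 of 24 were lower in Chd7-/- cells than in wild-type cells at each time, where 65.3% of all genes were at 0 h and 61.8% at 24 h. Ccnb2, cyclin B2, was the lowest of them there, at 76.4 and 99.6 FPKM in wild-type cells and 22.5 and 42.5 in Chd7-/- cells. All such directions in Chd7-/- cells over time shift upward with TPM scaling, as the all-gene median does.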

How the data were processed

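Ribosome-depleted total RNA was sequenced from 1 culture per group. Titles gave genotype and time, since the treatment label is estradiol throughout. The authors deposited 1 FPKM value per gene and library. FastQC, cutadapt, TopHat2 (2.0.11), Cufflinks (2.2.1) and the GRCm38 build appear in the submitters' processing notes. Annotation, strand use in counting and scaling between libraries: not given in the sources used here. A repeated header row (1) was dropped.

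Log2(FPKM + 1) ratios were taken in 5 comparisons for the 8964 genes whose mean reached 1 FPKM. A gene was called at 2-fold, or by a second rule at 1.5-fold (0.585 on the log2 scale). No p-value was computed. Every library's value is given for members called at 1.5-fold, MCM2-7 and the extremes of each role; others were added after their values were seen. The members and lists were chosen with earlier results of these data known. Depth was fitted from 160 to 191 low values per library, from genes with a single transcript of at least 2000 bases and an assumed mean fragment of 200 bases. Chromosomes came from RefSeq (GRCm38.p6), which matched 8407 of the 8964 genes by symbol, and transcript lengths from GENCODE M21. The 2-fold rule, but not the 1.5-fold rule, was tried on simulated libraries. These held larger planted changes and counting noise only, without spread between cultures. Python 3.11.15, numpy 2.4.6, pandas 2.3.3 and matplotlib 3.10.9 were used. Alternatives were other pseudocounts (0.1 or 5 FPKM), another filter (none, or 5 FPKM), 4 other scalings and, added after the data were seen, leaving out chromosome 5.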

Additional observations from a re-analysis of the deposited data

Results flagged for a closer look

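Of the 10 members whose responses had opposite signs in the 2 genotypes, Orc2 and Mcm5 had both responses beyond the counting interval. This rule was applied to FPKM as deposited only. Orc2 was lower at 24 h in wild type (log2 ratio -0.13) and higher in the knockout (0.33), a difference of 0.46. Mcm5 was higher in wild type (0.16) and lower in the knockout (-0.15), a difference of -0.31. With 1 library per group the difference was not tested. Most genes were also lower at 24 h, with an all-gene median log2 ratio of -0.11 for wild-type cells and -0.12 for Chd7-/- cells. The downward responses, -0.13 for Orc2 and -0.15 for Mcm5, were close to these medians. With median-centred libraries, which raise the ratios over time, the all-gene medians were -0.02 in both genotypes. Whether either gene fell more than genes in general was not tested. The share of all genes that meet the same rule was not computed. With libraries scaled to an equal sum (TPM) both genes lay above 0 over time in both genotypes, so the opposite signs are lost for each of them.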

How the results depend on the processing

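No paired analysis was possible because each group held 1 library, and no library could be left out for the same reason. The members' median relative to all genes stayed within 0.10 of 0 in all 5 comparisons and under all settings, except with no filter, where it was -0.053 for wild type over time, -0.17 for the knockout over time, and, for the difference of responses and for the knockout against wild type at 24 h, -0.11 and -0.15. There the genes near 0 set the all-gene median at 0. It was 0.066 for the knockout over time with TPM scaling. That scaling divides by a sum in which small RNA and predicted loci held 69.5% in the knockout at 0 h and 30.4% to 43.6% elsewhere. With it 2 members were at least 1.5-fold higher over time in wild type. In the knockout over time 41 were at least 1.5-fold and 19 at least 2-fold higher and 0 lower. Against wild type at 0 h, 40 were at least 1.5-fold and 5 at least 2-fold lower and 0 higher, and at 24 h 0 were lower. For the difference of responses 41 were at least 1.5-fold and 3 at least 2-fold higher. Under TPM the log2 ratio turned to 0.48 for Cdt1, 0.28 for Pold2 and 0.42 for Tyms in the knockout over time, and to -0.14 for Pole at 0 h. Median-centred and upper-quartile scaling each left 1 member at least 1.5-fold lower in the knockout over time, as did a pseudocount of 5 FPKM. These settings, and an equal sum without small RNA and predicted loci, left 0 lower in the knockout at 24 h. With the pseudocount of 5 FPKM 0 members were higher in the knockout at 0 h and 1 at 24 h. Upper-quartile scaling and the equal sum without small RNA gave 2 higher at 0 h. Without chromosome 5, chosen after the data were seen, 1 member was higher in the knockout over time and 0 were higher against wild type at 0 and 24 h. The cause of these moves was not tested.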
